A study of Mus musculus with 25 samples.

Results

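SR splicing factors and the kinases that phosphorylate them were examined in mouse spinal cord cholinergic neurons, in the light and dark periods, with and without *Bmal1*. The set holds 10 of the 50559 genes in the count table, namely *Tra2a*, *Tra2b*, *Acin1*, *Clk1*, *Clk4*, *Srsf2*, *Srsf3*, *Srsf5*, *Srsf6*, and *Srsf7*, and all 10 had enough counts to be tested. These genes were chosen by their night against day values within each genotype, so those values are given below as a description and carry no test. Controls, labelled wild-type, were *ChAT-Cre;RiboTag fx/+*, and *ChAT-BKO* mice, labelled *Bmal1* knockout, were *Bmal1 fx/fx* in addition. Both genotypes thus carry Cre under control of the choline acetyltransferase gene and 1 RiboTag allele, which puts a hemagglutinin (HA) tag on a ribosomal protein in Cre-expressing cells, and Cre acts in every cholinergic cell type of the cord and not in motor neurons alone. Spinal cords of 6-mo-old male mice were taken at zeitgeber time (ZT, hours after lights on) 8, in the light, and ZT20, in the dark, 6 mice for every pairing of genotype and time (4 conditions), and mRNA bound to tagged ribosomes was recovered by HA immunoprecipitation (IP), giving 24 IP libraries beside 1 library of pooled input RNA.

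SR proteins bind exonic enhancers through RNA recognition motifs and recruit the splicing machinery through a tail rich in arginine and serine, the RS domain. Kinases of the CLK family phosphorylate this tail in the nucleus and release SR proteins from nuclear speckles, and SR protein kinases (SRPKs) phosphorylate it in the cytoplasm for import. Several SR proteins shuttle with mRNA to the cytoplasm, and many limit their own synthesis by splicing their transcripts into forms that are degraded by nonsense-mediated decay. CLK1 activity is known to respond to body temperature, which itself follows the time of day, and *Bmal1* encodes a core activator of the circadian clock.

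In the reference annotation (GENCODE M21, GRCm38), each of the 10 genes carries transcripts that do not make full protein. *Clk1* (chromosome 1, 58410189-58424066, minus strand) is annotated with 13 transcripts, of which 1 is protein coding, 2 are targets of nonsense-mediated decay, and 7 retain an intron. *Clk4* (chromosome 11, 51261730-51281766, plus strand) has 14 transcripts, of which 4 are coding, 3 are decay targets, and 7 retain an intron. *Srsf5* (chromosome 12, 80945504-80950507, plus strand) has 12 transcripts with 5 coding, 1 decay target, and 3 with a retained intron. *Tra2a* (chromosome 6, 49243924-49264033, minus strand) has 5 and *Acin1* (chromosome 14, 54642161-54686931, minus strand) has 26, of which 0 are decay targets and 9 retain an intron. The counts are per gene and do not separate these forms, so a change in the count of a gene can come from any of them.

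Promoters were read from RefSeq (GRCm38.p6, 250 bases before to 50 after each start). They were held for 9 of the 10 genes, with 12 promoters in all, and *Clk1* had no entry. The clock E-box CACGTG, searched on both strands, was found in 0 of these 12 promoters and in 7.15% of all 32851 promoters, and the D-box TTANGTAA in 0 and in 2.32%. The hexamer AGGTCA of REV-ERB and ROR receptors was found in *Srsf3* and in 16.3% of all promoters. The heat shock element, searched as GAANNTTC or TTCNNGAA, was found in *Tra2b* and *Acin1* and in 15.1% of all, and the cAMP response element TGACGTCA in *Tra2a* and *Clk4* and in 1.79% of all. The stretches with the cAMP response element in a serine/arginine splicing activator and in a kinase, and the stretch of *Tra2b* in which both heat shock forms overlap, are shown 5′ to 3′ on the gene's strand with the matches in capitals. These are chr6:49264053-49264117 (minus strand), chr11:51263049-51263113 (plus strand), and chr16:22266181-22266230 (minus strand). A match is one of letters only, no match says only that these letters are not in the window, and binding was not measured.
Tra2a: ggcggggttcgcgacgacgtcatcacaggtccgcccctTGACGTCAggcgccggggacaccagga
Clk4: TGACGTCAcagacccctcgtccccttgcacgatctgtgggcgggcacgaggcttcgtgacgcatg
Tra2b: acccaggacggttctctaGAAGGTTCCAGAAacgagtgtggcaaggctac

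The libraries held between 4.04 and 31.7 M counts on genes, with medians of 9.20 M in controls and 15.1 M in *ChAT-BKO* libraries at ZT8, and of 12.4 M and 7.62 M at ZT20. *Bmal1*, listed as *Arntl*, averaged 8.44 ± 1.43 CPM (counts scaled to the size of each library, ± SD) in the control libraries of ZT8 against 2.64 ± 0.538 CPM in those of *ChAT-BKO*, and 8.73 ± 1.18 against 1.92 ± 0.515 CPM at ZT20. Of 7 markers of cholinergic neurons, 6 were above the input, with a median log2 ratio of 2.47, while markers of oligodendrocytes, astrocytes, microglia, and endothelial cells were below it, with 0 of each list above. Libraries also differed in how the level of a gene depended on transcript length, measured as the slope of log2 CPM on log2 length, but this slope overlapped between conditions, running from -0.25 to -0.11 in controls and from -0.24 to -0.16 in *ChAT-BKO* libraries at ZT8, and from -0.24 to -0.16 and from -0.25 to -0.10 at ZT20.

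Levels were compared between genes as mean CPM per kb of the longest coding transcript over the 24 IP libraries. *Srsf5*, which encodes an SR protein, stood highest at 49.2 ± 9.03 CPM per kb (SD, n = 24), and it was above the next gene in 24 of 24 libraries. *Srsf2*, long described as confined to the nucleus, followed at 28.2 ± 3.34, *Tra2a*, a splicing activator homologous to fly transformer-2, at 26.0 ± 5.40, *Srsf6* at 22.1 ± 1.79, and *Srsf3*, the smallest SR protein, at 22.1 ± 2.56. Adjacent genes among these 4 overlapped from library to library, as *Srsf2* was above *Tra2a* in 14, *Tra2a* above *Srsf6* in 15, and *Srsf6* above *Srsf3* in 11 of 24 libraries. *Acin1*, a subunit of complexes bound to spliced mRNA, was at 17.4 ± 2.79, and *Srsf7* at 12.1 ± 1.48 lay above *Tra2b* at 11.3 ± 1.35 in 16 of 24 libraries. The kinases *Clk1* at 6.51 ± 1.95 and *Clk4* at 5.37 ± 1.12 CPM per kb were lowest. *Clk1* had only 28 counts in its poorest library, and *Clk4* 34, so counting error weighs more on the kinases than on the other 8 genes. In IPs of whole spinal cords, fewer cholinergic cells of a kind and less of a transcript per cell cannot be told apart.

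**Figure D1:**
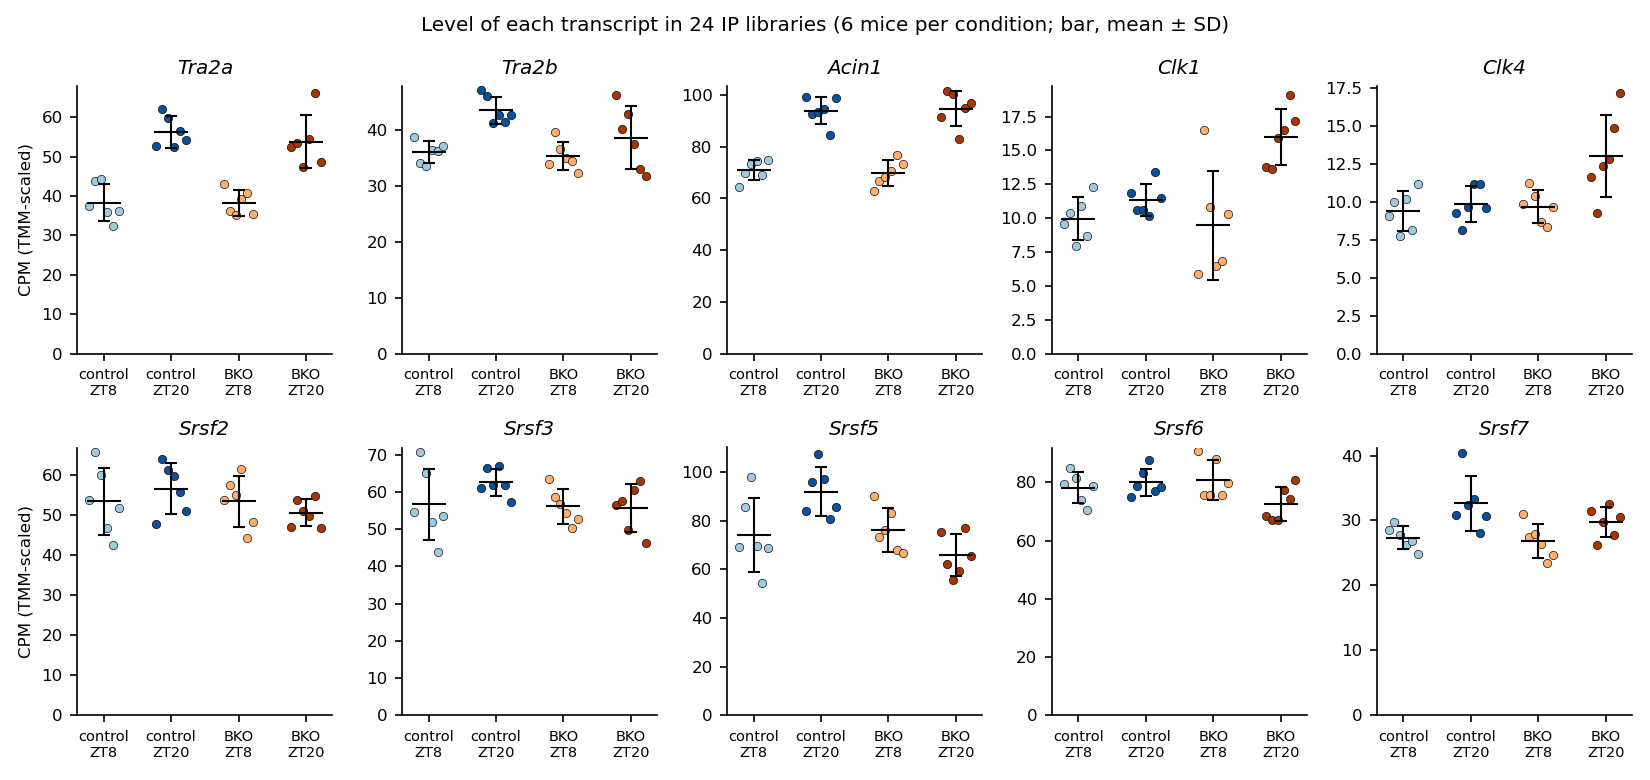
Level of each of the 10 transcripts in CPM (vertical axes, each from 0) in the 24 IP libraries, by condition; points are mice and bars the mean ± SD of 6. *Tra2a* and *Acin1* are higher at ZT20 than at ZT8 in both genotypes without overlap, *Srsf5* in *ChAT-BKO* libraries at ZT20 (55.7 to 76.9 CPM) lies below all controls at that time (80.9 to 107.6 CPM), and *Clk1* (13.6 to 19.1 CPM) lies above them (10.1 to 13.4 CPM).

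The IP was compared with the pooled input, which holds RNA of all spinal cord cells, to ask how far cholinergic ribosomes carry these transcripts. The kinases were at lower levels in the IP, with a log2 ratio of mean IP to input CPM of -1.53 for *Clk1* and -1.26 for *Clk4*, and both were below the input in 24 of 24 IP libraries. Averaged over the 24 IP libraries, *Tra2a* had the highest ratio of the set at 0.53, with 0 of 24 libraries below the input, and *Srsf6* was at 0.21, with 2 below. The other 6 genes lay between -0.44 for *Srsf2*, which was also below the input in 24 of 24 libraries, and -0.01 for *Srsf5*. The median over 8770 genes with at least 10 CPM was 0.42, and *Tra2a* was the 1 gene of the 10 with a mean ratio above it. At ZT8 the ratio of *Tra2a* was 0.25 in controls and 0.24 in *ChAT-BKO* libraries, below that median. At ZT20 it was 0.80 and 0.73. Its place above the median thus came from the ZT20 libraries, that is from the contrast on which the genes were selected. There was 1 input library, labelled as pooled, and the ratios carry no test. Without TMM scaling (trimmed mean of M-values) the ratios were lower, at -1.98 for *Clk1*, -1.71 for *Clk4*, 0.07 for *Tra2a*, and -0.24 for *Srsf6*. An IP ratio reflects both the RNA of other cell types in the input and the share of a transcript that is on ribosomes, and these cannot be told apart.

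**Figure D2:**
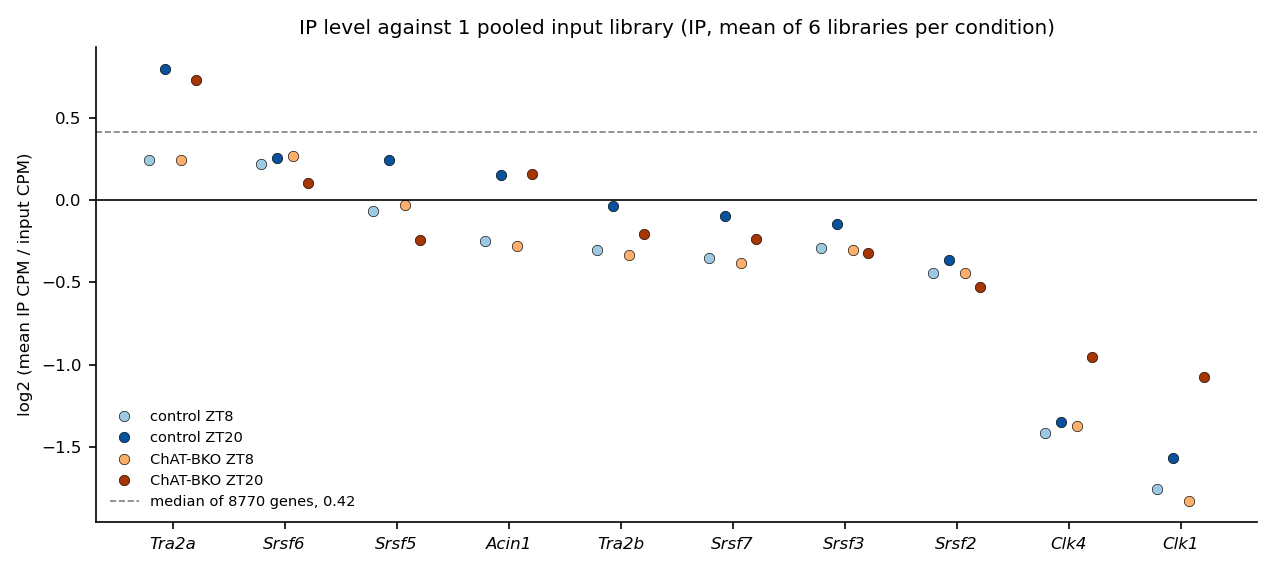
Log2 ratio of the mean CPM of the 6 IP libraries of each condition to the CPM of the 1 pooled input library (vertical axis), for the 10 genes in order of their mean ratio; the solid line marks equal levels and the dashed line the median of 8770 genes (0.42). *Clk1* and *Clk4* have the lowest ratios, and *Srsf2*, *Srsf3*, *Srsf7*, and *Tra2b* also lie below the input in all 4 conditions.

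Night against day was examined first in the 2 activators of the transformer-2 family, which bind purine-rich exonic enhancers, and in *Acin1*. In controls, *Tra2a* ran from 32.4 to 44.2 CPM (median 36.9) at ZT8 and from 52.6 to 62.1 (median 55.4) at ZT20. In *ChAT-BKO* libraries it ran from 35.2 to 43.0 (median 37.7) and from 47.5 to 66.3 (median 53.0). All 12 libraries of ZT20 were thus above all 12 of ZT8, and the log2 fold change was 0.55 (SE 0.075) in controls and 0.49 (SE 0.079) without *Bmal1*. *Acin1* ran from 64.6 to 74.9 CPM (median 71.5) in controls at ZT8 and from 84.7 to 99.4 (median 94.0) at ZT20. In *ChAT-BKO* libraries it was at 62.9 to 76.8 (median 69.5) and 83.0 to 101.5 (median 95.9), which also left no overlap, and the log2 fold changes were 0.40 (SE 0.058) and 0.45 (SE 0.063). *Tra2b* ran from 33.5 to 38.9 CPM (median 36.4) to 41.2 to 47.2 (median 42.7) in controls, a log2 fold change of 0.27 (SE 0.059) with no overlap. In *ChAT-BKO* libraries *Tra2b* was at 32.3 to 39.7 (median 34.8) and 31.8 to 46.3 (median 38.9), and here both the lowest and the highest library were at ZT20, with a log2 fold change of 0.15 (SE 0.086).

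For the nuclear kinases, the night against day values were larger in *ChAT-BKO* libraries than in controls. *Clk1* ran from 7.91 to 12.3 CPM (median 9.95) at ZT8 and from 10.1 to 13.4 (median 11.0) at ZT20 in controls, a log2 fold change of 0.18 (SE 0.11). In *ChAT-BKO* libraries it ran from 5.84 to 16.5 (median 8.57) and from 13.6 to 19.1 (median 16.2), a log2 fold change of 0.70 (SE 0.20). The overlap came from 1 library, *ChAT-BKO* replicate 2 at ZT8 with 16.5 CPM, while the other 5 were at or below 10.8 CPM. *Clk4*, its close paralog, ran from 7.76 to 11.2 CPM (median 9.49) to 8.14 to 11.2 (median 9.62) in controls and from 8.32 to 11.2 (median 9.72) to 9.24 to 17.1 (median 12.6) in *ChAT-BKO* libraries. Its log2 fold changes were 0.06 (SE 0.11) and 0.38 (SE 0.12).

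Among the SR proteins proper, *Srsf5* had night against day values of opposite sign in the 2 genotypes. In controls it ran from 54.3 to 98.1 CPM (median 69.3) at ZT8 and from 80.9 to 107.6 (median 91.0) at ZT20, a log2 fold change of 0.31 (SE 0.11). In *ChAT-BKO* libraries it ran from 66.9 to 90.4 (median 74.8) and from 55.7 to 76.9 (median 63.9), a log2 fold change of -0.22 (SE 0.088). The ranges overlapped in both genotypes. *Srsf7*, a shuttling SR protein with a zinc knuckle, had log2 fold changes of 0.25 (SE 0.079) in controls and 0.14 (SE 0.076) in *ChAT-BKO* neurons, and *Srsf3*, its close relative, 0.14 (SE 0.087) and -0.02 (SE 0.076). *Srsf6*, an SR protein of the same subfamily as *Srsf5*, was at 0.03 (SE 0.058) and -0.17 (SE 0.068), and *Srsf2*, the speckle protein SC35, at 0.08 (SE 0.094) and -0.09 (SE 0.074).

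Counted over the set, 10 of 10 log2 fold changes were above 0 in controls, with a median of 0.22, and 6 of 10 in *ChAT-BKO* neurons, with a median of 0.14. The median over the 8739 genes with at least 10 CPM was -0.00 in both. As a count only, *Tra2a* and *Acin1*, 2 of the 10, had an adjusted p under 0.05 (edgeR's quasi-likelihood test) in each genotype. Both were higher at ZT20. Genes called in either direction were 0.115% of all 21738 in controls, with 21 of 25 higher at ZT20. In *ChAT-BKO* neurons they were 0.285%, with 50 of 62 higher. Groups without overlap were found for 3 of 10 genes in controls and 2 of 10 in *ChAT-BKO* neurons, beside 0.938% and 1.18% of all genes. Since the genes were selected on this contrast, these counts are no test and no result about the set.

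**Figure D3:**
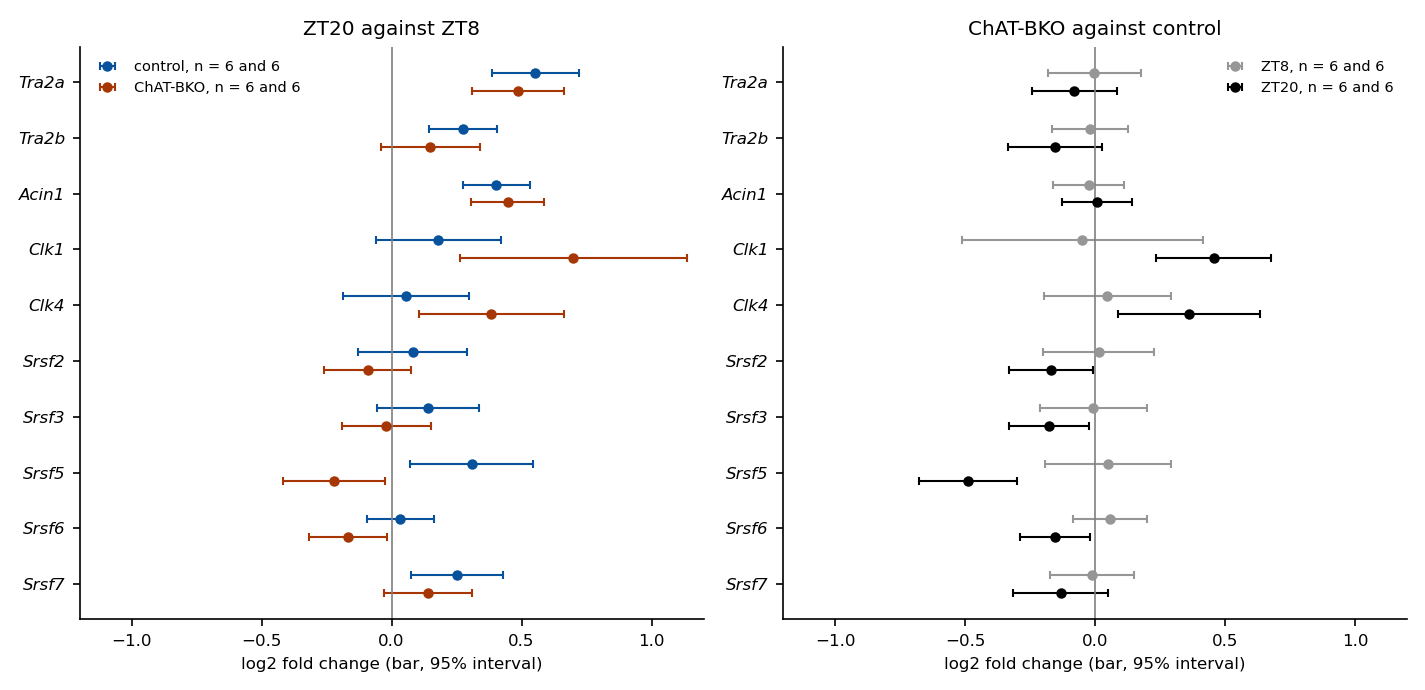
Log2 fold change of each gene (horizontal axis; bar, 95% interval computed from edgeR's fold change and F statistic) for ZT20 against ZT8 in each genotype (left) and for *ChAT-BKO* against control at each time (right), with 6 libraries per group. The intervals, here and in the text, use a t distribution on each comparison's own degrees of freedom and need not match edgeR's p-values. At ZT8 all 10 genotype values lie between -0.05 and 0.06, and at ZT20 *Srsf5* is at -0.49 and *Clk1* at 0.46.

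The difference between the 2 day-night differences combines the contrasts the genes were selected on and is likewise a description. It was largest in size for *Srsf5*, at -0.53 (SE 0.15), and *Clk1*, at 0.52 (SE 0.24), followed by *Clk4* at 0.33 (SE 0.17) and *Srsf6* at -0.20 (SE 0.088). The kinases thus had positive values and the 5 *Srsf* genes negative ones, with *Srsf2* at -0.17, *Srsf3* at -0.16, and *Srsf7* at -0.11. *Tra2a* at -0.06 (SE 0.11) and *Acin1* at 0.04 (SE 0.081) were near 0. Over all 21738 genes, edgeR called 0 (0%) for this difference at an adjusted p under 0.05, DESeq2 and limma voom also called 0, and 848 had an unadjusted p under 0.05, of which 3 were among the 10.

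Loss of *Bmal1* was then examined within each time point. The libraries of each time point also entered the contrasts that selected these genes, so neither comparison is independent of that choice. At ZT8 the genotypes did not differ detectably, as the 10 log2 fold changes ran from -0.05 (*Clk1*) to 0.06 (*Srsf6*), with a median of -0.01. None of the 10 was called by edgeR, DESeq2, or limma voom, beside 0.184% of all genes by edgeR. In edgeR 0 of the 10 had an unadjusted p under 0.05, beside 1051 of 21738 genes. Groups without overlap were found for 0 of the 10, beside 0.57% of all genes. The 95% intervals bound what could be missed. For *Acin1* the interval ran from -0.16 to 0.11, for *Srsf6* from -0.09 to 0.20, and for *Srsf5* from -0.19 to 0.29, whereas for *Clk1*, whose 6 *ChAT-BKO* libraries had a coefficient of variation of 42.4%, it ran from -0.51 to 0.42.

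At ZT20, *Srsf5* was lower in *ChAT-BKO* neurons. Its mean was 92.0 ± 10.1 CPM (SD, n = 6) in controls and 65.9 ± 8.62 CPM in *ChAT-BKO* libraries, and the 6 *ChAT-BKO* libraries lay below all 6 controls. The fitted fold change was 0.713, or -0.49 on the log2 scale (SE 0.085), with an adjusted p = 0.0113 by edgeR. The adjusted p stayed between 0.00505 and 0.0446 with each library left out in turn, and between 0.00022 and 0.042 over the other 8 alternatives. These ranges describe only how the fit depends on libraries and settings, since the ZT20 libraries were also used to select the genes. *Clk1* averaged 11.3 ± 1.18 CPM with *Bmal1* and 16.0 ± 2.09 CPM without it, also with no overlap, and the fitted fold change was 1.37, or 0.46 on the log2 scale (SE 0.099). It missed the threshold in edgeR (adjusted p = 0.0665) and passed it in DESeq2 (adjusted p = 0.00816). Over the 8 alternatives its adjusted p ran from that value to 0.131 with limma voom and 0.544 with all 24 libraries in the fit, and leaving out single libraries moved its adjusted p between 0.0439, without control replicate 5, and 0.178. *Clk4* averaged 9.83 ± 1.17 and 13.0 ± 2.72 CPM, with overlap between genotypes and a log2 value of 0.36 (SE 0.12) that was not called (edgeR's adjusted p = 0.545).

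The other 7 genes were not called at ZT20. *Srsf3* had a log2 fold change of -0.18 (95% interval -0.33 to -0.02), *Srsf2* -0.17 (-0.33 to -0.01), *Srsf6* -0.15 (-0.29 to -0.02), *Tra2b* -0.15 (-0.34 to 0.03), and *Srsf7* -0.13 (-0.31 to 0.05), with adjusted p between 0.697 and 0.851 from edgeR. For *Tra2a* the value was -0.08 (-0.24 to 0.08) and for *Acin1* 0.01 (-0.13 to 0.14). In all, 1 of 10 genes was called, beside 0.23% of all genes, and 2 of 10 had groups without overlap, beside 0.506%. An unadjusted p under 0.05 from edgeR was found for 6 of the 10, beside 1366 of 21738 genes. The set's median was -0.14, against -0.01 over genes with at least 10 CPM. The ZT20 libraries also enter the contrasts that selected these genes, so this comparison is not independent of that choice. In the same libraries, the summed level of 10 skeletal muscle markers ran from 77.8 to 161.7 CPM in *ChAT-BKO* samples and from 62.8 to 96.1 CPM in controls, with 0 markers absent from a condition, and its part in these differences was not tested.

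The mean genotype effect over both time points is orthogonal to both night against day contrasts. The genes were chosen with earlier results of these data known, so the effect is not shown to be independent of that choice. None of the 10 passed the test, beside 0.653% of all genes, and DESeq2 and limma voom also called 0. In edgeR 2 of the 10 had an unadjusted p under 0.05, beside 1582 of 21738 genes. The largest values were -0.22 for *Srsf5* (SE 0.076, adjusted p = 0.326 from edgeR), 0.21 for *Clk1* (SE 0.12), and 0.21 for *Clk4* (SE 0.083, adjusted p = 0.51). The 95% interval was -0.16 to 0.08 for *Tra2a* and -0.09 to 0.08 for *Acin1*.

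Variation between mice of the same condition was compared within 4 pairs of related genes after each condition's mean was removed from log2 CPM. Removing the means takes out the night against day differences by which the genes were chosen. *Clk1* and *Clk4* varied together, with Pearson's r = 0.60 (permutation p = 0.00018, adjusted p = 0.00072) and Spearman's rho = 0.73 (permutation p = 9e-05, adjusted p = 0.00036) over 24 libraries. Without the 2 libraries farthest from the median of *Clk1*, *ChAT-BKO* replicates 1 and 2 at ZT8, r was 0.71. In a separate check over all 24 libraries, r was 0.63 with the length slope removed. *Srsf5* and *Srsf6* had r = 0.60 (permutation p = 0.00327, adjusted p = 0.00654) and rho = 0.60 (permutation p = 0.00432, adjusted p = 0.00864), and r = 0.55 without the 2 farthest libraries, but r = 0.25 (adjusted p = 0.535, permutation test) once the length slope was removed. *Srsf3* and *Srsf7* had r = 0.40 (permutation p = 0.0302, adjusted p = 0.0403) and rho = 0.47 (permutation p = 0.0274, adjusted p = 0.0365), with r = 0.38 without the 2 farthest libraries and 0.15 (adjusted p = 0.689) with the slope removed. For *Tra2a* and *Tra2b* r was -0.35 (permutation p = 0.161, adjusted p = 0.161) and rho -0.36 (permutation p = 0.124, adjusted p = 0.124), and without the 2 farthest libraries r was -0.14. Only these 4 pairs were tested, and high r was not limited to them. Among untested pairs r was 0.75 for *Tra2a* and *Srsf3*, 0.75 for *Srsf2* and *Srsf3*, 0.74 for *Tra2a* and *Srsf5*, and 0.73 for *Srsf3* and *Srsf5*. With the slope removed these were 0.54, 0.55, 0.53, and 0.52, above the 2 related SR pairs. Other untested pairs were lower, down to -0.58 for *Tra2b* and *Srsf6* before removal of the slope.

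**Figure D4:**
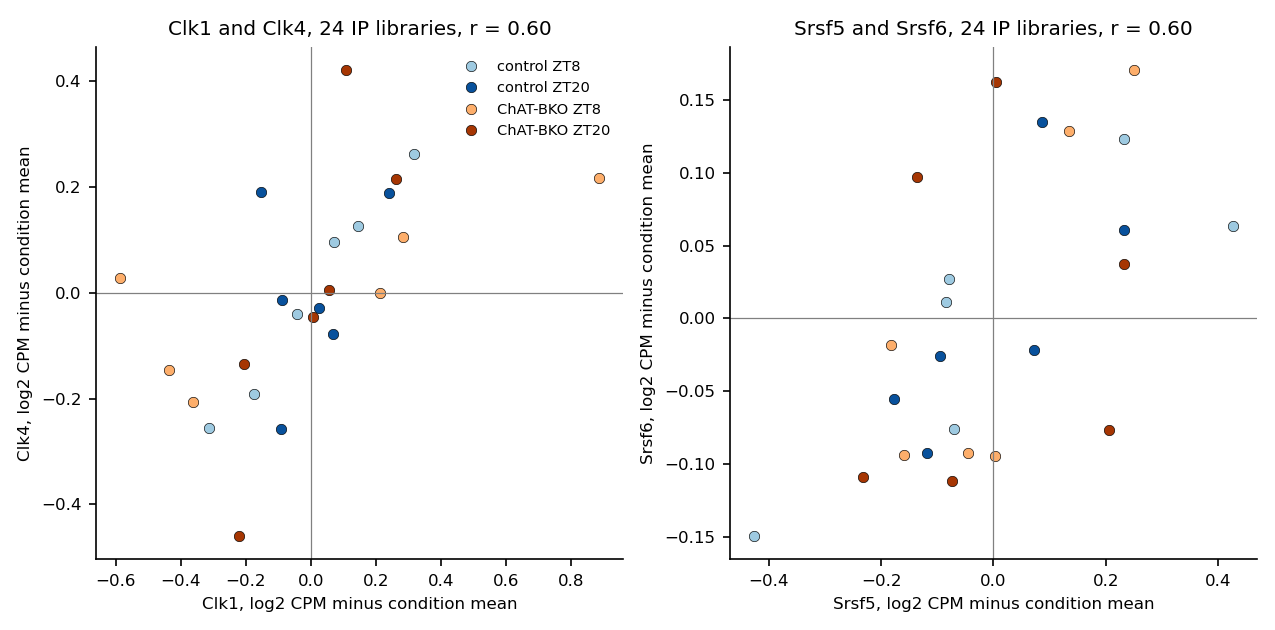
Log2 CPM minus the mean of its condition for *Clk1* and *Clk4* (left) and for *Srsf5* and *Srsf6* (right), with 1 point for each of 24 IP libraries and colors for the 4 conditions. Both pairs have r = 0.60, and after removal of each library's length slope r was 0.63 for the kinases and 0.25 for the SR proteins.

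The length slope itself moved with the SR genes from mouse to mouse. Within conditions, r with the slope over 24 libraries was -0.74 for *Srsf6*, -0.68 for *Tra2a*, -0.67 for *Srsf3*, -0.65 for *Srsf2*, -0.64 for *Srsf5*, and -0.45 for *Srsf7*, against 0.45 for *Tra2b*, 0.41 for *Acin1*, 0.15 for *Clk1*, and -0.12 for *Clk4*. The slope is computed from the same libraries as the levels, and these values are a description.

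By the highest Pearson's r of log2 CPM over the 24 libraries, among 8738 genes with at least 10 CPM, the gene most like *Tra2a* was *Luc7l* (r = 0.92), which encodes a U1 snRNP-associated RS protein. *Luc7l* was also the second nearest to *Acin1* (r = 0.89), after *Uhrf2* (r = 0.94), a ubiquitin ligase. *Clk1* was nearest to *Rsrp1* (r = 0.86), which encodes an arginine- and serine-rich protein, and *Clk4* was nearest to *Tmeff2* and *Gem* (r = 0.77 each), with *Clk1* in the third place (r = 0.76). *Tra2b* was nearest to *Evi5* (r = 0.81), *Srsf2* to *Slc25a33* (r = 0.87), *Srsf3* to *Fgf9* (r = 0.91), *Srsf5* to *Tomm20* (r = 0.79), *Srsf6* to *Ormdl3* (r = 0.82), and *Srsf7* to *Bnip3* (r = 0.81). These values include the differences between conditions and the shared length slope.

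Genes of the same pathway outside the set were grouped into 6 other SRSF proteins, 7 other SR protein kinases, 3 partners of ACIN1, 34 other RS-domain splicing proteins, and 2 import receptors. The lists were chosen with earlier results of these data known. The counts and calls over them thus describe the listed genes and are no test of the pathway. Between genotypes, 0 of these 52 genes were called by edgeR at ZT8, at ZT20, or for the mean effect, with medians of -0.01 in all 3 comparisons. At night, 2 of the 52 were called higher in controls and 3 in *ChAT-BKO* neurons, all among the RS-domain proteins, and 0 were called lower. Over all genes, 0.115% and 0.285% were called in either direction. The medians over the 52 were 0.03 in both genotypes. *Luc7l* rose from 85.6 ± 2.78 to 105.1 ± 2.73 CPM (SD, n = 6) in controls, which is 0.30 on the log2 scale (SE 0.047, edgeR's adjusted p = 0.0101), and from 85.3 ± 1.95 to 104.3 ± 2.80 CPM in *ChAT-BKO* neurons, which is 0.29 (SE 0.047, adjusted p = 0.0068). *Prpf38b*, related to a factor of spliceosome activation, rose by 0.48 on the log2 scale in controls (SE 0.081, edgeR's adjusted p = 0.0167) and 0.45 in *ChAT-BKO* neurons (SE 0.068, adjusted p = 0.00287). *Rsrp1* rose in *ChAT-BKO* neurons, from 62.8 ± 20.3 to 112.8 ± 20.7 CPM, or 0.82 on the log2 scale (SE 0.16, edgeR's adjusted p = 0.0381), and in controls its value was 0.43 (SE 0.14, adjusted p = 0.374). The difference between these 2 values was 0.39 (SE 0.24) and was not called. The 6 other SRSF genes and the 7 other kinases, *Clk2*, *Clk3*, and the SRPK genes among them, had 0 calls in either direction in either genotype.

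**Figure D5:**
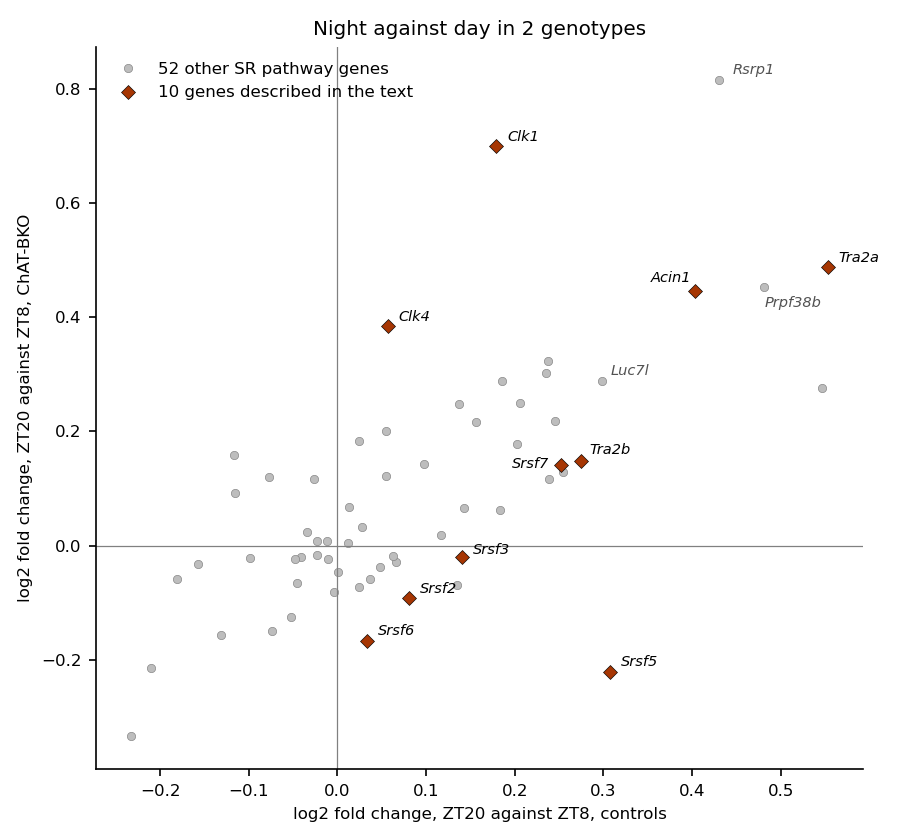
Log2 fold change of ZT20 against ZT8 in controls (horizontal axis) and in *ChAT-BKO* neurons (vertical axis) for the 10 genes (diamonds) and the 52 other genes of the pathway (grey points). *Tra2a* (0.55 and 0.49), *Acin1* (0.40 and 0.45), *Prpf38b* (0.48 and 0.45), and *Luc7l* (0.30 and 0.29) have like values in both genotypes, *Clk1*, *Clk4*, and *Rsrp1* lie higher in *ChAT-BKO* neurons, and *Srsf5* is above 0 in controls and below 0 in *ChAT-BKO* neurons.

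RNAs that are kept in the nucleus were followed as a measure of nuclear RNA in the IP. Of 6 such RNAs, *Neat1* was called higher at ZT20 in controls, at 0.41 on the log2 scale (SE 0.074, edgeR's adjusted p = 0.0305), and in *ChAT-BKO* neurons it was at 0.19 (SE 0.093, adjusted p = 0.539). The summed level of the 6 ran from 677.8 to 971.9 CPM in controls at ZT8 and from 779.4 to 1006.7 CPM at ZT20, and from 750.2 to 873.8 and 739.1 to 946.4 CPM in *ChAT-BKO* libraries. The conditions overlapped, and the part of nuclear RNA in the differences above was not tested.

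Reads shared with related sequences touched some of the genes. Expected counts were not whole in 25 of 25 columns for *Srsf3*, 24 for *Acin1*, 23 for *Tra2b*, 23 for *Srsf5*, and 6 for *Srsf2*, which shows that reads were divided with other genes, and were whole throughout for *Clk1*, *Clk4*, *Tra2a*, *Srsf6*, and *Srsf7*. The listed pseudogene of *Srsf3*, *Srsf3-ps*, held 34 counts over the 24 libraries beside 17737 for its parent.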

How the data were processed

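Count data were from 24 IP libraries and 1 pooled input. The authors mapped paired-end stranded reads to mm10 with STAR 2.7.5 and quantified genes by RSEM. The deposited expected counts were rounded before use (6.11% of values were not whole). The members and gene lists described here were chosen with earlier results of these data known. Genes with at least 10 counts over the IP libraries (21738) were tested in R 4.3.3 with edgeR 4.0.16 (TMM, quasi-likelihood F test, two-sided, Benjamini-Hochberg over all genes, adjusted p under 0.05), on the 12 libraries of each comparison, or on all 24 for the mean genotype effect and the difference of differences. Fits were checked on simulated counts. CPM use TMM-scaled library sizes, with a prior count of 2 for log2 CPM. Relations used 100000 permutations within condition (two-sided) over 4 pairs. Genes named were all members, called genes of the pathway lists and the 3 nearest genes by r, of which the text gives the first and a few others. Alternatives were DESeq2 1.42.0, its size factors, no filter, filterByExpr, limma 3.58.1 voom with quality weights, replicate number as a block, the length slope as covariate, all 24 libraries, and each library left out. The length slope was taken out of the pair relations as an alternative chosen after seeing the data. Within conditions, none of the 60 pairs of libraries was alike within counting error (chi-square per degree of freedom 1.86 to 27.8). A count of RS dipeptides per protein was not run.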

Additional observations from a re-analysis of the deposited data

Results flagged for a closer look

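Of 40 groups of 6 libraries (10 genes in 4 conditions), 1 held a library that stood apart by Dixon's test, which chance gives in about 1 of 20 groups. This was *Tra2a* in *ChAT-BKO* libraries at ZT20, where replicate 5 was at 66.3 CPM and the next highest at 54.5 CPM, a gap of 0.627 of the group's range.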

How the results depend on the processing

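Of 1671 values recomputed under the alternatives, 1609 were counted as unchanged, among them night against day values and counts whose calls changed. At ZT20, 1 of the 10 genes was called between genotypes in the reported fit. DESeq2 called 2 (*Srsf5* and *Clk1*), beside 93 of 14987 genes. So did edgeR with the length slope as covariate (168 of 21738 genes, *Clk1* adjusted p = 0.013) and with replicate number as a block (61 genes, *Clk1* adjusted p = 0.0305). Leaving out single libraries gave 1, or 2 without control replicate 5. Replicate numbers did not appear to pair the mice across conditions. Of 36 same-number pairs, 16 deviated together at r over 0.1 (range -0.57 to 0.70), and 5 of 24 libraries correlated best with their own number. Whether mice of 1 number shared a batch was not tested. The block changed no other call of a member between genotypes. Between night and day, the contrast that selected the genes, the count of the 10 in controls was 2 in the reported fit. It was 3 with DESeq2 (adding *Tra2b*, beside 127 of 12883 genes) or the block (adding *Srsf5*, beside 86 of 21738), and 5 with the slope as covariate (beside 405). In *ChAT-BKO* neurons it was 2. It was 3, adding *Clk1*, with DESeq2 (beside 218 of 12462 genes), with the slope (474 of 21738), and without *ChAT-BKO* replicate 2 at ZT8 (37 higher, 8 lower). For *Srsf3* and *Srsf7*, r was 0.38 with DESeq2's size factors and 0.15 with the slope removed, lay between 0.32 and 0.47 with single libraries left out, and lost its call without 12 of the 24 libraries. For *Srsf5* and *Srsf6*, r was 0.25 with the slope removed. For *Tra2a* and *Tra2b* it lay between -0.56 and -0.18 with single libraries left out and passed the test without *ChAT-BKO* replicate 6 at ZT20 (r = -0.56). The cause of these shifts was not tested.

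In the genotype comparisons, all 37 values that changed sign were uncalled and near 0. Sign changes of uncalled night against day values were not counted. At ZT8, *Srsf3* was 0.023 and *Srsf7* 0.0037 with limma voom, and *Tra2a* 0.00058 and *Srsf3* 0.010 with the slope as covariate, which also put *Acin1* at -0.014 at ZT20. With single libraries left out, the log2 fold change at ZT8 ran from -0.046 to 0.041 for *Tra2a*, -0.063 to 0.0049 for *Tra2b*, -0.051 to 0.0054 for *Acin1*, -0.30 to 0.067 for *Clk1* (lowest without *ChAT-BKO* replicate 2), -0.0054 to 0.10 for *Clk4*, -0.038 to 0.087 for *Srsf2*, -0.067 to 0.069 for *Srsf3*, -0.021 to 0.14 for *Srsf5*, and -0.055 to 0.017 for *Srsf7*. That of *Acin1* ran from -0.022 to 0.041 at ZT20 and from -0.025 to 0.0087 for the mean effect.

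Counts over all genes moved more. Between genotypes, edgeR called 40 genes at ZT8, 50 at ZT20, and 142 for the mean effect, DESeq2 70, 93, and 225, and the fit with the slope 145, 168, and 397, and the block gave 69 at ZT8. Between night and day edgeR called 25 in controls and 62 in *ChAT-BKO* neurons, and 140 in the latter with all 24 libraries in the fit. For the difference of day-night differences, 1 gene, none of the 10, was called with the slope and 0 otherwise. The share of higher calls in controls fell from 21 of 25 to 73 of 127 with DESeq2. With single libraries left out, the counts ran from 19 to 42 at ZT8, 29 to 69 at ZT20, 120 to 191 for the mean effect, 11 to 28 in controls, and 33 to 56 in *ChAT-BKO* neurons. The shallowest library, with 4.04 M counts, limits *Clk1* and *Clk4* most.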
